A study of Homo sapiens with 6 samples.

Results

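The complete step from a normal human fibroblast to its transformed descendant was examined by setting the 2 gene expression arrays labelled BJELM against the 2 arrays of BJ, over all genes. Of the 6 arrays in the series, 4 therefore carried the comparison. The 2 arrays of the intermediate line BJEL served to estimate the spread between arrays. They also entered the mean over the 6 arrays, by which probe sets were chosen and genes were placed above or below the median level. The 18417 genes tested were those with a probe set tied to 1 gene symbol, taking for each gene the probe set with the highest mean over the 6 arrays. All values are log2 signals after RMA, the array summary that corrects background, quantile-normalizes and combines the probes of a set.

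BJ are primary human foreskin fibroblasts with no introduced gene, grown without selection. The line labelled BJELM was made from them by introducing hTERT, which encodes the enzyme subunit of telomerase, and the SV40 early region, source of the viral large T and small t antigens, and then a retroviral fusion of MYC to a hormone-binding domain of the estrogen receptor (MYC-ER). It was grown under G-418, hygromycin and puromycin and in the continuous presence of 4-hydroxytamoxifen, the ligand that lets the fusion protein enter the nucleus. BJ received none of these additions, so the effects of the introduced genes, the 3 antibiotics and the ligand cannot be told apart in this comparison. Whether the derived line is a clone or a pool is not given in the sources used here. The submitters describe the replicates as biological, with 2 arrays per line. The p-values set the difference between BJELM and BJ against the spread between replicate arrays, pooled over the 3 lines. They do not cover differences between separately derived lines.

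Large T antigen binds and inactivates the p53 and retinoblastoma proteins, which releases the E2F factors that switch on genes of DNA replication, while small t inhibits the phosphatase PP2A. MYC, with its partner MAX, binds the E-box sequence and is best known for raising the genes of ribosome production, nucleotide synthesis and cell growth. A resting fibroblast is a matrix-producing cell, known for its collagens, elastic fibers, proteoglycans and contractile proteins, and for its response to interferon and to inflammatory signals.

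The signals of the introduced genes were compared with the labels before any other gene. TERT gave 7.77 and 7.88 on the BJ arrays and 10.84 and 10.78 on the arrays labelled BJELM, a log2 difference of 2.99 ± 0.11 (SE, n = 2 arrays per line, limma adjusted p = 8.44e-05), in the direction of the label. MYC gave 9.47 and 9.61 on the BJ arrays and 9.57 and 8.90 on the arrays labelled BJELM. The groups overlapped, and the log2 difference was -0.299 ± 0.21 (adjusted p = 0.393). It was 0.04 without BJELM replicate 2 (adjusted p = 0.884). The MYC probe set therefore did not show the introduced fusion, and the arrays are called by their label throughout. The paper reports MYC-ER overexpression in BJELM by western blot, which measures protein and not the RNA read here. The probe set reads the cell's own transcript as well as whatever part of the fusion transcript it covers, and which part that is was not tested. CDKN2A, which encodes the p16 and ARF proteins that rise in cells with inactivated retinoblastoma protein, gave 8.18 and 8.21 in BJ and 10.30 and 10.01 in the arrays labelled BJELM (log2 difference 1.96 ± 0.15, adjusted p = 0.000499). CCND2, the G1 cyclin D2, had the largest rise of all, from 5.95 and 5.53 to 10.75 and 11.08, a difference of 5.18 ± 0.18.

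Replicate arrays of a line correlated at 0.995 for BJ and 0.993 for the BJELM label across genes, and a BJ array with a BJELM-labelled array at 0.943 to 0.959. No pair of arrays held identical values. The median signal of the arrays lay between 6.37 and 6.46. With 2 arrays per line, precision is limited by their number.

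Markers of the labelled cell type were lower in the transformed line. All 20 fibroblast markers had a lower mean on the arrays labelled BJELM, and 16 of them fell, against 4.7% of all genes that fell by the same rule (adjusted p under 0.05 and at least 2-fold). The summed log2 level of the 20 markers was 224.4 and 220.0 in BJ and 190.7 and 180.7 in the arrays labelled BJELM. PDGFRA, the alpha receptor of platelet-derived growth factor, went from 8.55 and 8.49 to 5.22 and 5.06 (log2 change -3.38 ± 0.10, adjusted p = 5.74e-05). S100A4, a calcium-binding protein of motile fibroblasts, went from 9.63 and 8.96 to 6.26 and 6.30 (change -3.01 ± 0.23). The lines did not overlap for either gene, and the BJ arrays were 0.67 apart for S100A4. No background call was used, so whether a marker of low signal, such as PDGFRA on the arrays labelled BJELM, was still expressed is not known here. VIM, the intermediate filament protein vimentin, kept 13.07 and 13.01 against 12.98 and 12.87 and was not called. In a culture, fewer cells of a type and less RNA per cell of that type cannot be told apart.

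Markers of other cell types were counted in the same way. Of 13 epithelial or keratinocyte markers 1 rose and 1 fell, with summed levels of 90.25 and 88.55 in BJ and 89.91 and 87.72 in the arrays labelled BJELM. The one that rose was CLDN1, a tight junction protein, from 7.30 and 6.92 to 9.72 and 8.94 (change 2.21 ± 0.33), and the one that fell was the keratin gene KRT19, from 11.23 and 10.54 to 9.66 and 8.80, no longer called when BJ replicate 1 (adjusted p = 0.102) or BJELM replicate 2 (0.0677) was dropped. None of the 10 endothelial or 5 pluripotency markers reached 2-fold, so none could be called. At an unadjusted limma p under 0.05 there were 2 and 0 of them, beside 6873 of all 18417 genes. The pluripotency list also holds POU5F1, NANOG and TDGF1, which were not among the genes tested. The 5 that were tested had array medians of 5.32 to 5.52, below the median gene at 7.26, so pluripotency was hardly examined here. The endothelial sums were 55.9 and 55.89 in BJ and 56.61 and 56.19 in the arrays labelled BJELM, and the pluripotency sums were 26.8 and 26.08 against 26.21 and 25.9. Of 9 leukocyte markers CD68, a lysosomal glycoprotein that fibroblasts also make, fell from 11.24 and 11.41 to 10.27 and 10.29, and it was not called without BJ replicate 2. Of 6 melanocyte markers MITF, a transcription factor that also drives lysosomal genes, fell from 9.66 and 9.70 to 8.10 and 7.89. Of 8 skeletal or smooth muscle markers cardiac actin, ACTC1, fell from 10.12 and 8.63 to 6.77 and 6.56. That list had 3 falls without BJ replicate 2 or BJELM replicate 1. Of 7 neural markers the intermediate filament gene NES fell from 8.94 and 8.57 to 6.75 and 6.75. The part of other cell types in the results below was not tested.

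**Figure D1:**
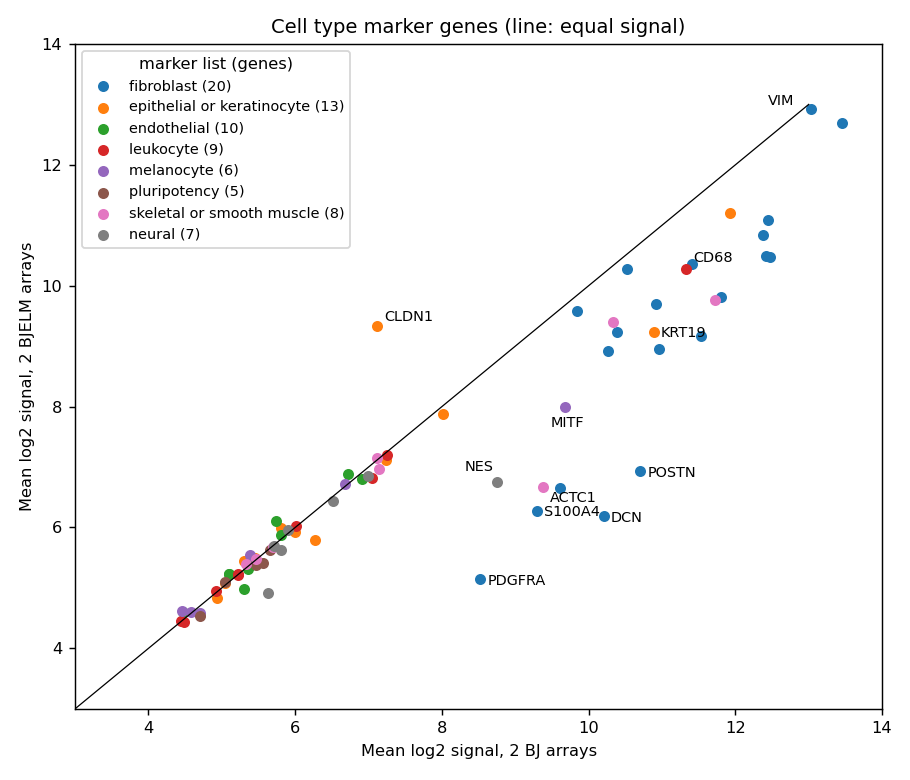
Mean log2 signal of each marker gene on the 2 arrays labelled BJELM (vertical axis) against the 2 BJ arrays (horizontal axis), coloured by cell type, with the line of equal signal. All 20 fibroblast markers lie below the line, and CLDN1 is the marker farthest above it.

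Over all genes, 1619 of 18417 (8.79%) were called, of which 753 rose (4.09%) and 866 fell (4.7%), and the median change over all genes was 0.01 on the log2 scale. The groups of all 1619 called genes were separate, as were those of 60.5% of all genes, so separation alone says little with 2 arrays against 2. The counts of lists below are to be read beside the shares of 4.09% that rose and 4.7% that fell. Falls were larger than rises. At least 4-fold changes numbered 76 rises and 203 falls, and at least 16-fold changes 3 rises and 22 falls. The falls outnumbered the rises in the main fit, but without BJELM replicate 2 the counts were 807 and 727, and with each array centred on its median 833 and 812. Calls were spread over the genome: the share of genes that rose ran from 1.76% on chromosome 19 to 6.36% on chromosome 21, and the share that fell from 2.12% on chromosome 21 to 7.33% on chromosome 12.

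**Figure D2:**
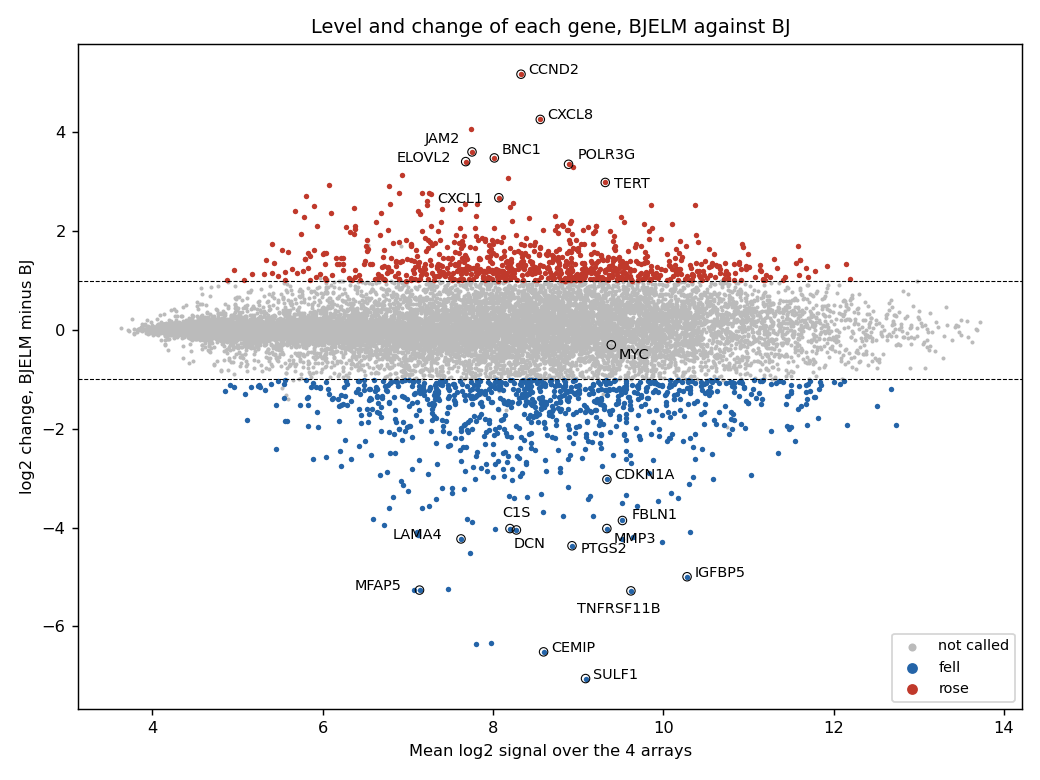
Change of each gene on the log2 scale, BJELM minus BJ (vertical axis), against its mean log2 signal over the 4 arrays (horizontal axis). Red points rose and blue points fell, grey points were not called, dashed lines mark a 2-fold change, circles mark named genes, and genes of the Y chromosome and XIST are not drawn. SULF1 and CEMIP lie lowest, CCND2 lies highest, and MYC lies within the grey band.

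Besides CCND2, the largest rises were taken from genes whose mean over the 6 arrays was at or above the median gene. Among them BNC1, a zinc finger factor of keratinocytes and germ cells, went from 6.07 and 6.47 to 9.66 and 9.85 (change 3.48 ± 0.15, adjusted p = 0.000106). AK4, the adenylate kinase of the mitochondrial matrix, went from 7.65 and 6.92 to 10.58 and 10.61 (change 3.31 ± 0.27). SLC27A2, a long-chain fatty acid transporter and acyl-CoA synthetase, went from 6.43 and 6.83 to 9.49 and 9.92 (change 3.07 ± 0.19). Others among the 15 largest such rises were RNF182, a ubiquitin ligase, at 2.77 ± 0.15, MNS1, a structural protein of flagella, at 2.58 ± 0.17, and HOMER1, a scaffold of the synapse, at 2.54 ± 0.21. SLC7A2 and TAF4B were chosen after the values were seen, and their mean over the 6 arrays lay below the median gene. SLC7A2, a carrier of arginine and other cationic amino acids, went from 5.76 and 5.65 to 9.68 and 9.88 (change 4.07 ± 0.10, adjusted p = 5.23e-05). TAF4B, a TFIID subunit of germ cells, went from 5.29 and 5.42 to 8.38 and 8.62 (change 3.14 ± 0.12).

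Many of the factors that build ribosomes rose, and none of those in the lists of small and large subunit assembly fell. Of 41 measured genes of the small subunit processome and early assembly, 20 rose and 0 fell, with a list median of 0.93. Of 39 large subunit and nucleolar factors, 17 rose and 0 fell, with a median of 0.88. The RNA polymerase I and III machinery had 8 rises among 32 genes and a median of 0.47.

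The promoters of these factors are shown because the E-box letters CACGTG, the textbook binding sequence of MYC with MAX, lie in several of them. The windows are from RefSeq on GRCh38.p14, 250 bases before to 50 after each start, and 14237 of the tested genes had at least 1 among the 20107 windows. CACGTG reads the same on both strands. It was found in 8.32% of all windows, in 92 of 825 windows of genes that rose (11.2%) and in 57 of 1116 windows of genes that fell (5.11%). Among small subunit factors it was in 18 of 38 windows (47.4%), and in 7 of the 19 windows of those that rose (36.8%). For the large subunit list the counts were 11 of 36 windows overall and 5 of 14 among the rises. Purine, pyrimidine, one-carbon and polyamine genes had it in 10 of 44 windows (22.7%). In the small subunit list the share among risen members was therefore below that of the whole list. The stretches printed lie upstream of the start and run 5′ to 3′ on the strand of the gene, with CACGTG in capitals.
DDX21, chr10:68956591-68956646, + strand: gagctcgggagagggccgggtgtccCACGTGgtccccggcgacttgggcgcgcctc
UTP18, chr17:51260432-51260487, + strand: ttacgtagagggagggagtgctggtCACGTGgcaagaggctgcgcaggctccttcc
MDN1, chr6:89819919-89819974, - strand: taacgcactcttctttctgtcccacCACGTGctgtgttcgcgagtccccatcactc
GTF3C4, chr9:132669975-132670030, + strand: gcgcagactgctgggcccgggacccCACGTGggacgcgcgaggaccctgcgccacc
ODC1, chr2:10448013-10448066, - strand: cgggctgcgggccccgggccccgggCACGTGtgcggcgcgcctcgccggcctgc
PPAT, chr4:56435767-56435822, - strand: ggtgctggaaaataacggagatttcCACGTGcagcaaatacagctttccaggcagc
A match of letters is a description and was not tested for binding. In MDN1 and PPAT the letters lie far from the start, at 155 and 182 bases before it, and in DDX21, GTF3C4 and ODC1 within 31, 35 and 29 bases.

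The genes printed were chosen by hand with earlier results known, and all of them rose, so their rise says nothing of the letters. Of the 18 small subunit windows with CACGTG, 7 belonged to members that rose. MDN1, a giant AAA ATPase that strips assembly factors from the pre-60S particle, went from 7.21 and 7.39 to 9.19 and 9.27 (log2 change 1.93 ± 0.10, adjusted p = 0.000181). DDX21, a nucleolar RNA helicase, went from 9.73 and 9.68 to 11.03 and 11.09 (change 1.35 ± 0.08). UTP18, of the small subunit processome, went from 8.94 and 9.04 to 10.01 and 10.26 (change 1.14 ± 0.12). In each of the 3 the 2 arrays of a line were at most 0.25 apart. The largest rise in the small subunit list was that of the helicase DDX10, from 7.14 and 7.21 to 9.06 and 9.05 (change 1.88 ± 0.082, adjusted p = 0.000113). It was followed by RCL1, an endonuclease of pre-rRNA processing, at 1.78 ± 0.093, and the helicase DHX33 at 1.74 ± 0.10. In the large subunit list RRP1B rose by 1.83 ± 0.10, NOP16 by 1.65 ± 0.15, and NOLC1, a scaffold of the nucleolus and Cajal bodies, by 1.65 ± 0.10.

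The polymerases that read ribosomal and transfer RNA genes rose through a few subunits. POLR3G, the RNA polymerase III subunit typical of stem and tumor cells, went from 7.11 and 7.31 to 10.42 and 10.71 (change 3.36 ± 0.13). In polymerase I, POLR1E went from 8.64 and 8.53 to 10.29 and 10.20 (change 1.66 ± 0.088, adjusted p = 0.000184). POLR1B, its second largest subunit, rose by 1.59 ± 0.083, and POLR1C, shared with polymerase III, by 1.48 ± 0.15. GTF3C4, a subunit of the TFIIIC factor that reads transfer RNA promoters, rose by 1.199 ± 0.095.

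The proteins of the cytosolic ribosome itself moved little. Of 33 measured, 1 rose (RPS24, from 9.96 and 10.62 to 11.41 and 11.64), at a list median of 0.15, and that call was lost without BJ replicate 1 (change 0.91) or BJELM replicate 2 (adjusted p = 0.0560). In contrast, all 57 mitochondrial ribosomal proteins had a higher mean on the arrays labelled BJELM, 12 of them rose and the median was 0.67. The difference between these lists was not tested. MRPS25 led with 8.06 and 7.89 in BJ and 9.91 and 9.70 in the arrays labelled BJELM (change 1.83 ± 0.12, adjusted p = 0.000347), ahead of MRPS17 at 1.46 ± 0.094 and MRPS23 at 1.37 ± 0.091. The lists for the mitochondrial import and transcription machinery and for the respiratory chain gave 6 rises among 35 and 2 among 41. Of all genes 4.09% rose by the same rule, a share near that of the respiratory list. TFAM, which packages and transcribes mitochondrial DNA, went from 7.73 and 7.84 to 9.57 and 9.91, and the import subunit TIMM21 from 8.24 and 8.61 to 9.45 and 9.85. The 2 respiratory calls, COX7B and NDUFB9, were both lost without BJ replicate 1 or BJELM replicate 2, as was that of TIMM8A.

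Small nucleolar RNA genes, which guide the chemical modification of ribosomal RNA, were examined after values had been seen. Of 176 measured, 154 had a higher mean on the arrays labelled BJELM, 17 rose, 0 fell and the median was 0.33. The count of rises was 11 without BJ replicate 1 and 9 without BJELM replicate 2. SNORA71C went from 9.19 and 9.40 to 11.17 and 11.03 (change 1.80 ± 0.11, adjusted p = 0.000275) and SNORD30 from 7.42 and 7.66 to 9.05 and 9.17 (change 1.57 ± 0.11). Most of these genes lie in introns of other genes, and their probe sets may read the host transcript as well.

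Charging and modification of transfer RNA gave 4 rises among 33 genes, and translation factors 3 among 28. ADAT2, the catalytic subunit of the deaminase that makes inosine at the wobble position, went from 7.07 and 6.85 to 8.61 and 8.62 (change 1.66 ± 0.10, adjusted p = 0.000304), and PUS7, a pseudouridine synthase, from 7.69 and 7.83 to 8.89 and 9.39. The methyltransferase NSUN2 rose by 1.03 ± 0.12, a call lost without BJ replicate 1 or BJELM replicate 2. Among translation factors EEF2K, the kinase that slows elongation by phosphorylating eEF2, went from 8.62 and 8.50 to 9.85 and 9.82 (change 1.28 ± 0.091). The calls of EIF3J and EIF4A3 were lost without BJ replicate 1 or BJELM replicate 2, leaving 1 rise.

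Nucleotide, one-carbon and polyamine synthesis had 13 rises and 0 falls among 33 genes, with a median of 0.73. PPAT, which commits to purine synthesis, went from 7.54 and 8.09 to 9.92 and 10.04 (change 2.17 ± 0.18, adjusted p = 0.000645). PRPS2, which makes the activated ribose, went from 9.22 and 9.58 to 10.94 and 10.997 (change 1.57 ± 0.13), and PFAS, a later purine enzyme, rose by 1.42 ± 0.11. CAD and UMPS, which carry pyrimidine synthesis, rose by 1.39 ± 0.095 and 1.71 ± 0.09. ODC1, the rate-limiting enzyme of polyamine synthesis, went from 10.996 and 11.11 to 12.27 and 12.34 (change 1.26 ± 0.093).

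Nuclear transport had 13 rises among 36 genes. NUP107, a scaffold of the pore's outer ring, went from 8.10 and 8.24 to 9.87 and 9.78 (change 1.66 ± 0.11, adjusted p = 0.000347). The membrane nucleoporin NDC1 rose by 1.48 ± 0.13, the inner ring protein NUP205 by 1.39 ± 0.10 and NUP155 by 1.34 ± 0.16. XPO5, which exports microRNA precursors, went from 8.69 and 8.75 to 9.89 and 10.02. Folding by the chaperonin and its partners gave 3 rises among 24 genes, CCT2, TCP1 and FKBP4, with changes of 1.004 ± 0.082, 1.04 ± 0.10 and 1.14 ± 0.16. All 3 were lost without BJ replicate 1, and 5 were found without BJELM replicate 1.

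**Figure D3:**
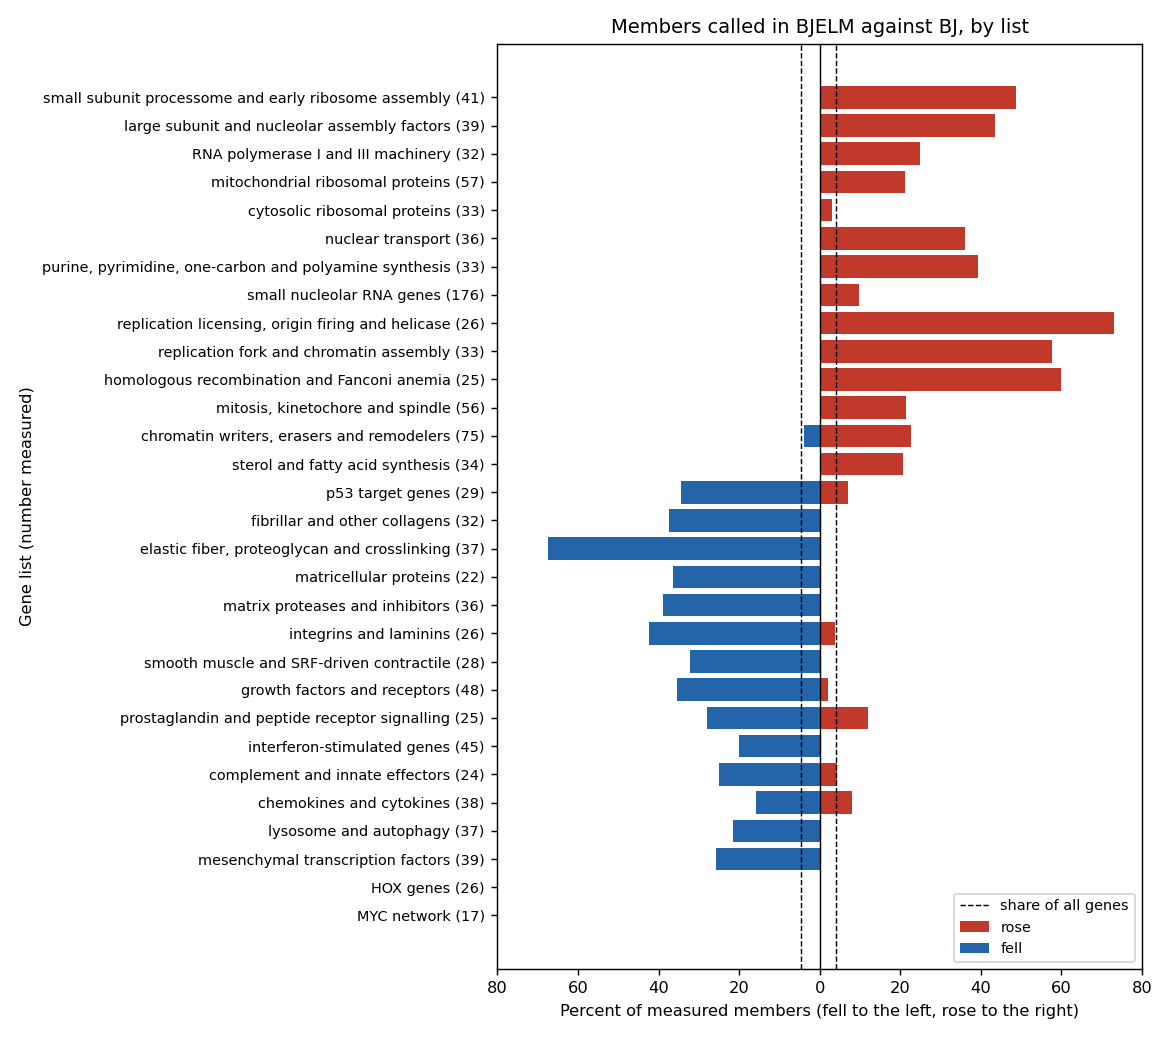
Percent of each list's measured members that rose (red, to the right) or fell (blue, to the left), with the share of all genes that rose (4.09%) and fell (4.7%) as dashed lines and the number measured in brackets. Lists of ribosome assembly and DNA replication reach to the right, lists of matrix and contractile genes to the left, and HOX and MYC network genes have no bar.

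Many genes of DNA replication rose. Of 26 genes that license or fire origins, 19 rose and 0 fell, and the median was 1.36, compared with 0.01 over all genes. Of 33 genes of the fork and of chromatin assembly behind it, 19 rose, with a median of 1.18. Of 25 genes of homologous recombination and the Fanconi anemia pathway, 15 rose, with a median of 1.04.

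Their promoters are shown because they hold E2F letters. The motifs searched on both strands were TTTCCCGC, TTTGGCGC and TTTCGCGC, which may overlap each other on opposite strands. At least 1 of them was in 3.47% of all windows, in 76 of 825 windows of genes that rose (9.21%) and in 25 of 1116 of genes that fell (2.24%). In the licensing list 13 of 30 windows held one (43.3%), and 11 of the 23 windows of risen members. In the fork list 14 of 38 windows did (36.8%), and 7 of 21 of risen members. The printed stretches again lie upstream of the start on the strand of the gene, with the motif in capitals.
MCM6, chr2:135876497-135876620, - strand: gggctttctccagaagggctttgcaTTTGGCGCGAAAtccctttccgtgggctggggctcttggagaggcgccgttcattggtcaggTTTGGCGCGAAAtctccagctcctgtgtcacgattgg
TIPIN, chr15:66356715-66356776, - strand: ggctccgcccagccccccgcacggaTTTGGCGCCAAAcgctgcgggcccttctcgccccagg
GINS2, chr16:85688955-85689010, - strand: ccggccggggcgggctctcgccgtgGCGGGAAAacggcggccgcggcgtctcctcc
RFC3, chr13:33818069-33818126, + strand: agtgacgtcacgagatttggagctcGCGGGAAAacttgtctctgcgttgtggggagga
MCM6 holds 4 overlapping matches in 2 places, the first 152 bases before the start. TIPIN holds 2 matches that overlap.

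Most origin licensing factors rose. CDC6, which loads the helicase, went from 8.43 and 8.95 to 11.09 and 10.59 (log2 change 2.14 ± 0.22, adjusted p = 0.00126). CDC7, the kinase that fires origins, went from 4.998 and 5.71 to 7.39 and 7.40 (change 2.04 ± 0.22). All 6 subunits of the MCM2 to MCM7 helicase rose, from 1.04 ± 0.11 for MCM7 to 1.65 ± 0.14 for MCM4. Among their partners CDC45 went from 8.24 and 8.50 to 10.46 and 10.30, GINS3 rose by 2.03 ± 0.14, MCM10 by 2.02 ± 0.13 and GINS2 by 1.29 ± 0.12. GMNN, the protein that restrains licensing, rose as well, from 7.31 and 8.11 to 8.82 and 9.25 (change 1.33 ± 0.27). The call of GMNN was lost without BJ replicate 1 or BJELM replicate 2, and that of MCM7 without BJ replicate 1 or BJELM replicate 1.

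At the fork, TIPIN, of the fork protection complex, went from 8.04 and 8.27 to 10.05 and 10.49 (change 2.11 ± 0.18, adjusted p = 0.000739). PRIM1, the primase, went from 7.71 and 8.42 to 10.17 and 10.14 (change 2.09 ± 0.22) and RFC3, of the clamp loader, from 8.64 and 9.04 to 10.91 and 10.90 (change 2.06 ± 0.15). The clamp itself, PCNA, had 9.67 and 9.90 and 10.44 and 10.67, a change of 0.77 ± 0.12 that did not reach 2-fold, and TYMS, thymidylate synthase, changed by 0.125 ± 0.15 (adjusted p = 0.637). Both were chosen after the values were seen.

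In recombination and repair, BLM, the Bloom helicase, went from 7.46 and 7.69 to 9.75 and 10.02 (change 2.31 ± 0.13, adjusted p = 0.000242). XRCC2, of homologous recombination, went from 7.50 and 8.002 to 9.65 and 10.10 (change 2.12 ± 0.21). EXO1, the nuclease that resects breaks, went from 7.56 and 7.99 to 9.89 and 9.86 (change 2.10 ± 0.15), and BRCA1 from 7.40 and 7.80 to 9.48 and 9.29 (change 1.79 ± 0.15). In all of these genes the lower array of the BJELM label was more than 1 log2 unit above the higher BJ array.

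Part of the mitotic genes rose. Of 56 genes of the kinetochore and spindle, 12 rose, with a median of 0.65, and without BJ replicate 2 the count was 20. CDC25A, the phosphatase that activates cyclin-dependent kinases, went from 6.94 and 7.04 to 8.90 and 8.75 (change 1.83 ± 0.16), and CENPK, of the inner kinetochore, from 8.52 and 9.29 to 10.19 and 10.41 (change 1.39 ± 0.25). The checkpoint kinase TTK rose by 1.36 ± 0.14 and the condensin subunit NCAPH by 1.35 ± 0.11. MKI67, the common marker of cycling cells, was nearly level at 10.01 and 10.45 and 10.36 and 10.36 (change 0.131 ± 0.17, adjusted p = 0.672, chosen after its value was seen). Of 24 cyclins, kinases, E2F and RB proteins of G1, 5 rose and 0 fell, among them E2F5, from 6.26 and 6.33 to 8.47 and 8.50 (change 2.19 ± 0.10), CKS2 at 1.71 ± 0.26, and the RB relative RBL1 at 1.31 ± 0.12. There was 1 fall in that list without BJ replicate 2 or without BJELM replicate 2.

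A pair of cell cycle inhibitors went opposite ways. Of 6 measured, 1 rose and 1 fell. CDKN2A rose as given above, and CDKN1A, the p21 inhibitor that p53 induces, went from 10.98 and 10.72 to 8.45 and 7.20 (change -3.02 ± 0.46, adjusted p = 0.0046), with the 2 arrays labelled BJELM 1.25 log2 units apart.

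In the list of genes that p53 is known to induce, which holds CDKN1A, 10 of 29 fell and 2 rose, with a median of -0.55. FAS, the death receptor, went from 8.82 and 9.09 to 6.41 and 6.19 (change -2.66 ± 0.13, adjusted p = 0.000168). SPATA18, of mitochondrial quality control, went from 7.62 and 7.25 to 5.02 and 4.93 (change -2.45 ± 0.15), and ZMAT3, an RNA-binding protein, from 10.29 and 10.17 to 8.24 and 8.08 (change -2.08 ± 0.10). MDM2, the ligase that degrades p53, fell by 1.03 ± 0.15, a call lost without BJ replicate 2 or BJELM replicate 2 and with median centring or quantile normalization of the arrays (changes of -0.99 in both). GDF15, a secreted stress factor, fell from 9.43 and 9.31 to 8.21 and 7.09, a call lost without either BJ array (adjusted p = 0.0717 and 0.0525). The 2 that rose were PMAIP1, the NOXA death protein, from 7.43 and 7.50 to 9.01 and 8.69, and PLK2, a polo-like kinase, from 8.72 and 8.88 to 9.75 and 10.08. The rises numbered 1 without BJELM replicate 2.

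In the list of apoptosis and of the death ligand TRAIL 4 of 27 genes fell and 1, PMAIP1, rose. TNFRSF11B, osteoprotegerin, the secreted decoy of TRAIL and RANKL, went from 12.22 and 12.29 to 7.21 and 6.75, a change of -5.28 ± 0.16 or 38.8-fold (adjusted p = 5.74e-05). TNFRSF10D, a membrane decoy receptor, went from 10.14 and 10.01 to 8.76 and 9.02 (change -1.18 ± 0.14). CFLAR, which blocks caspase-8, went from 8.03 and 7.68 to 6.84 and 6.42, and BCL2L1, the survival protein BCL-XL, from 10.14 and 10.21 to 9.03 and 8.83. The decoy receptor TNFRSF10C was not analysed here, since no probe set tied to it alone was used. The signalling receptors were not called: TNFRSF10A changed by -0.14 ± 0.10 (adjusted p = 0.359) and TNFRSF10B by -0.39 ± 0.31 (adjusted p = 0.455).

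**Figure D4:**
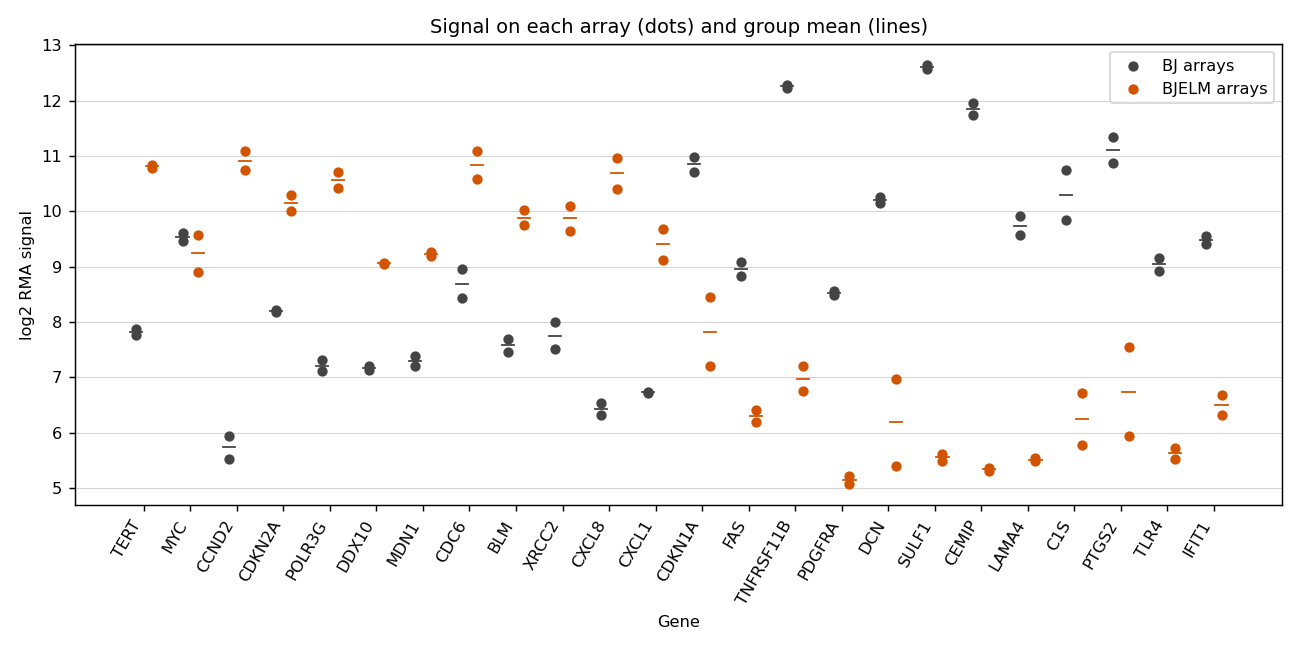
log2 RMA signal of 24 named genes on each array, with BJ arrays in grey and arrays labelled BJELM in orange, and a short line at each group's mean. The groups overlap for MYC only among the genes drawn, and DCN, PTGS2 and CDKN1A have the widest gap between the arrays labelled BJELM.

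The matrix held the deepest falls. Of 37 genes of elastic fibers, proteoglycans and crosslinking enzymes, 25 fell and 0 rose, with a median of -1.81, and the lowest members were SULF1, an enzyme that edits heparan sulfate, and CEMIP, which degrades hyaluronan. SULF1 had 12.65 and 12.58 in BJ and 5.62 and 5.50 in the arrays labelled BJELM, and CEMIP 11.96 and 11.73 and 5.37 and 5.31. MFAP5, of the elastic microfibril, went from 10.23 and 9.30 to 4.65 and 4.36 (change -5.26 ± 0.29, adjusted p = 0.000211). DCN, the collagen-binding proteoglycan decorin, went from 10.26 and 10.15 to 6.98 and 5.40 (change -4.02 ± 0.47, adjusted p = 0.00188). The lines did not overlap for either gene, and the 2 arrays labelled BJELM were 1.58 apart for DCN. The fibulins FBLN1 and FBLN5 fell, with changes of -3.85 ± 0.21 and -3.39 ± 0.11, the fibrillins FBN1 and FBN2 changed by -2.37 ± 0.13 and -2.45 ± 0.20, and LOX, the enzyme that crosslinks collagen and elastin, fell by 1.95 ± 0.35. HAS2, which makes hyaluronan, went from 10.47 and 9.91 to 7.55 and 7.22.

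Of 32 collagen genes measured, 12 fell, with a median of -0.55. COL6A3 went from 11.94 and 11.67 to 9.95 and 9.67 (change -1.99 ± 0.16, adjusted p = 0.00054), and COL1A2 from 12.67 and 12.28 to 10.99 and 9.98 (change -1.99 ± 0.33, adjusted p = 0.00617). Of the basement membrane collagens COL4A1 fell by 1.74 ± 0.25, and COL15A1 fell by 1.59 ± 0.32. Matricellular proteins gave 8 falls among 22. IGFBP7, a secreted binding protein linked with senescence, went from 12.47 and 12.25 to 8.53 and 8.01 (change -4.09 ± 0.23, adjusted p = 0.000231), and POSTN, periostin, from 11.26 and 10.15 to 7.74 and 6.12 (change -3.77 ± 0.64, adjusted p = 0.00719). THBS1, thrombospondin, which MYC is known to lower, fell from 13.69 and 13.70 to 11.79 and 11.75.

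Of 36 proteases of the matrix and their inhibitors, 14 fell. MMP3, stromelysin, went from 10.89 and 11.80 to 6.99 and 7.66 (change -4.02 ± 0.35). SERPINE2, a protease inhibitor, went from 11.60 and 11.74 to 8.37 and 8.04 (change -3.46 ± 0.13, adjusted p = 8.37e-05). SERPINF1, the antiangiogenic factor PEDF, fell by 3.21 ± 0.16, and FAP, the activated fibroblast protease, fell by 2.96 ± 0.26. TIMP2 and TIMP3, inhibitors of metalloproteinases, fell, with changes of -1.39 ± 0.12 and -1.60 ± 0.082.

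Among integrins and laminins 11 of 26 fell and 1 rose. LAMA4 went from 9.91 and 9.57 to 5.54 and 5.48 (change -4.23 ± 0.13, adjusted p = 5.74e-05), LAMA2 fell by 2.91 ± 0.12, and NID2, which links laminin to collagen IV, fell by 3.57 ± 0.19. ITGA11, the collagen-binding integrin subunit, had 9.14 and 7.76 in BJ and 5.82 and 5.80 in the arrays labelled BJELM. LAMA1, the laminin chain of early embryos, was the exception, rising from 6.68 and 6.47 to 7.999 and 7.63. Of 30 cadherins and junction proteins, 6 fell and 1 rose. PCDH10 went from 9.94 and 9.63 to 6.93 and 6.85 (change -2.90 ± 0.12), L1CAM fell by 2.95 ± 0.22, and JAM2, a junctional adhesion molecule of endothelium, rose from 5.99 and 5.91 to 9.73 and 9.38. PCDH18 fell by 2.10 ± 0.39 and was not called once BJ replicate 1 was dropped (adjusted p = 0.0592).

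Contractile genes under the factor SRF gave 9 falls and 0 rises among 28, and 5 falls without BJELM replicate 2. MYOCD, the SRF coactivator myocardin, went from 10.59 and 9.84 to 7.51 and 6.29 (change -3.32 ± 0.43, adjusted p = 0.00261). SYNPO2, of the actin bundle, went from 8.73 and 8.52 to 5.44 and 5.30 (change -3.25 ± 0.11, adjusted p = 6.6e-05). LMOD1, an actin nucleator, fell by 2.80 ± 0.28 and MYLK, myosin light chain kinase, fell by 2.11 ± 0.15.

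Transcription factors of mesenchyme fell in part, 10 of 39, with a median of -0.35. LHX9 went from 9.81 and 9.75 to 8.11 and 7.10 (change -2.17 ± 0.31, adjusted p = 0.0036), and OSR2, MKX and NR2F1, factors of limb, tendon and skin mesenchyme, fell, with changes of -1.71 ± 0.28, -1.52 ± 0.20 and -1.45 ± 0.11. The positional code kept its level more closely. None of 26 HOX genes reached 2-fold in the main fit, so none could be called. At an unadjusted limma p under 0.05 there were 10, a share near that of all genes (6873 of 18417). The list median was -0.08. HOXC10 had 7.87 and 7.45 and 6.92 and 6.75 (change -0.82 ± 0.16) and was called without BJ replicate 2.

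**Figure D5:**
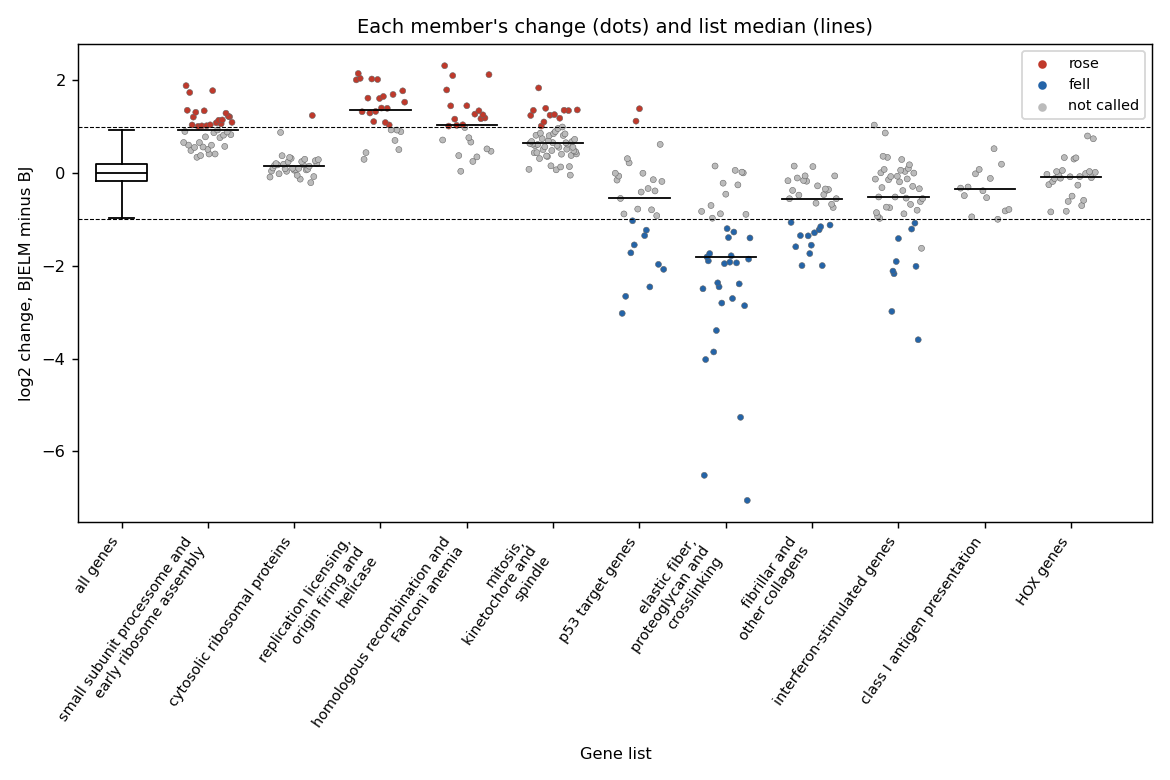
Change on the log2 scale (vertical axis) of each member of 11 lists, coloured by call, with a line at the list median and dashed lines at a 2-fold change. The box gives the quartiles of all genes drawn and its whiskers the 5th and 95th percentiles. Replication genes lie above the upper dashed line on median, elastic fiber and proteoglycan genes below the lower one, ribosomal protein and HOX genes around 0, and class I genes at a median of -0.35.

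Of 48 growth factors and receptors 17 fell and 1 rose. ANGPT1, the ligand of the TIE2 receptor, went from 8.56 and 8.34 to 5.74 and 5.53 (change -2.81 ± 0.15, adjusted p = 0.000184). FGF7, the keratinocyte growth factor, went from 7.16 and 7.23 to 4.61 and 4.54 (change -2.62 ± 0.095) and KITLG, the ligand of KIT, from 9.34 and 9.37 to 6.84 and 6.90 (change -2.48 ± 0.11). IGFBP3 and IGFBP4, carriers of insulin-like growth factors, fell, with changes of -3.42 ± 0.48 and -2.24 ± 0.14, and IGFBP5 went from 12.87 and 12.68 to 8.54 and 7.02. The rise was that of HBEGF, a ligand of the EGF receptor, at 1.03 ± 0.15, and it was not called without BJ replicate 2 or BJELM replicate 1.

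In the TGF-beta, activin and BMP list 9 of 38 fell and 2 rose. FST and FSTL3, which bind activin, went from 9.71 and 9.69 to 7.66 and 7.49 and from 10.93 and 10.43 to 8.50 and 8.40. The BMP targets ID1, ID2 and ID3 fell, with changes of -1.16 ± 0.094, -1.23 ± 0.12 and -1.47 ± 0.12. TGFB2 rose from 9.58 and 8.98 to 11.02 and 10.61 (change 1.53 ± 0.22, adjusted p = 0.00404). WNT and Notch genes gave 7 falls and 3 rises among 39. The ligands JAG1 and WNT5A fell, with changes of -2.37 ± 0.27 and -2.12 ± 0.15 and the WNT inhibitor DKK1 went from 12.94 and 13.28 to 11.20 and 11.18, while LEF1, a nuclear effector of WNT, rose from 6.07 and 6.26 to 7.96 and 7.85 (change 1.74 ± 0.11).

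Of 38 guidance genes 9 fell and 3 rose. SEMA5A went from 10.99 and 10.65 to 7.54 and 7.37 (change -3.37 ± 0.16, adjusted p = 0.000137), the netrin NTN4 fell by 2.76 ± 0.34 and SEMA3A fell by 2.11 ± 0.18. EFNA5, an ephrin ligand, rose from 6.67 and 6.401 to 8.92 and 9.26 (change 2.56 ± 0.15). Immediate-early and ERK feedback genes gave 7 falls among 32 and 4 without BJ replicate 1. SPRY4, an inhibitor of receptor signalling, went from 8.99 and 8.74 to 7.03 and 7.04 (change -1.82 ± 0.11), and DUSP6, the ERK phosphatase, from 9.43 and 8.95 to 7.90 and 7.49 (change -1.49 ± 0.24). DUSP1 fell by 1.69 ± 0.37 and was not called without BJ replicate 1 or BJELM replicate 2.

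Interferon-stimulated genes fell in part, 9 of 45, with none rising and a median of -0.52. The promoters of IFIT1 and IFIT3 are shown because they hold the letters GAAA followed after 2 bases by a second GAAA, a core of the interferon response element, which were searched on both strands and are printed as they stand on the strand of the gene. They were in 3.11% of all windows, in 31 of 48 windows of the list (64.6%) and in 6 of the 9 windows of members that fell (66.7%), so the members that fell did not stand apart from the list in this respect.
IFIT1, chr10:89392482-89392554, + strand: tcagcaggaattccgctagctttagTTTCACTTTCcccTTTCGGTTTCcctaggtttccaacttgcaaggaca
IFIT3, chr10:89327816-89327909, + strand: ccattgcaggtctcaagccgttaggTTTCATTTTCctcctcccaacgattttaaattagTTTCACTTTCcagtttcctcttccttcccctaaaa
IFIT1, which binds foreign RNA ends, went from 9.56 and 9.41 to 6.68 and 6.33 (change -2.98 ± 0.27, adjusted p = 0.000835). IFIT3 went from 8.27 and 8.005 to 6.02 and 5.91 and IFIT2 from 7.96 and 7.82 to 5.80 and 5.76. TRIM22, an antiviral ligase, had 9.23 and 8.69 and 5.79 and 4.95 (change -3.59 ± 0.65) and was not called without BJ replicate 1 (adjusted p = 0.0545). None of 14 class I antigen presentation genes reached 2-fold in the main fit, so none could be called. An unadjusted limma p under 0.05 was found for 6 of them, and for 6873 of all 18417 genes. The peptide transporter TAP1 had 9.36 and 9.04 and 8.54 and 7.86 (change -0.996 ± 0.40, adjusted p = 0.127). There were 2 falls without BJELM replicate 1, one of them ERAP2, which trims peptides, with 7.55 and 7.31 against 6.68 and 6.29.

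In the complement and innate list 6 of 24 fell and 1 rose. C1S and C1R, the proteases that start the classical pathway, went from 10.74 and 9.85 to 6.72 and 5.78 and from 10.36 and 10.08 to 7.94 and 6.76, with changes of -4.05 ± 0.61 and -2.87 ± 0.46. SERPING1, their inhibitor, fell by 2.77 ± 0.36. TLR4, the receptor of bacterial lipopolysaccharide, went from 9.15 and 8.93 to 5.73 and 5.52 (change -3.41 ± 0.19, adjusted p = 0.000208). CLU, clusterin, was the rise, at 1.19 ± 0.18, and was not called without BJELM replicate 1, while 2 rises were found without BJELM replicate 2.

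Of 38 chemokines, cytokines and receptors 3 rose and 6 fell, and 5 rose without BJELM replicate 2. CXCL8, interleukin-8, had 6.32 and 6.53 in BJ and 10.97 and 10.40 in the arrays labelled BJELM. CXCL1 went from 6.74 and 6.72 to 9.69 and 9.12 (change 2.68 ± 0.20, adjusted p = 0.000482). IL1B, interleukin-1 beta, went from 7.19 and 6.402 to 8.96 and 7.95 (change 1.66 ± 0.39), with 0.79 between its BJ arrays and 1.01 between those labelled BJELM, and was not called without BJ replicate 2 (adjusted p = 0.101) or BJELM replicate 1 (0.0609). IL1R1, the receptor of that cytokine, fell from 9.63 and 9.57 to 7.03 and 6.99 (change -2.59 ± 0.08, adjusted p = 5.74e-05), and CXCL12, the stromal chemokine that guides blood stem cells, from 11.02 and 10.91 to 8.89 and 7.64 (change -2.70 ± 0.37).

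The promoters of the chemokines are shown because the same NF-kappa-B letters lie in those that rose and those that did not. GGAATTTCC, searched on both strands, was in 85 of 20107 windows (0.423%) and in 9 of 36 windows of the chemokine and cytokine list. The stretches lie upstream on the strand of the gene, with the motif in capitals.
CXCL8, chr4:73740453-73740511, + strand: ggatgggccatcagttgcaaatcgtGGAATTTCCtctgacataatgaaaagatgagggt
CXCL1, chr4:73869290-73869348, + strand: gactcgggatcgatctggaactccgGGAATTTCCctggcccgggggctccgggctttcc
CXCL2, chr4:74099239-74099297, - strand: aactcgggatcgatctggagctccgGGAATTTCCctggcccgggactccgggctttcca
CXCL3, chr4:74038734-74038792, - strand: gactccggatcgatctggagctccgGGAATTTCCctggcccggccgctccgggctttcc
CXCL2 had 6.97 and 6.76 and 7.75 and 7.07 (change 0.54 ± 0.22, adjusted p = 0.125) and CXCL3 5.48 and 5.45 and 5.67 and 5.78 (change 0.26 ± 0.084, adjusted p = 0.0678). Neither was called, and both were chosen after their values were seen. CXCL1, CXCL2 and CXCL3 are near copies, and their probe sets may share sequence.

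Prostaglandin synthesis and peptide receptors gave 7 falls and 3 rises among 25, and 4 falls without BJ replicate 1 or BJELM replicate 2. PTGS2, cyclooxygenase-2, went from 11.35 and 10.87 to 7.54 and 5.95 (change -4.37 ± 0.62, adjusted p = 0.00376), and PTGS1, cyclooxygenase-1, from 10.46 and 10.88 to 8.91 and 8.45 (change -1.99 ± 0.22). The rises were the receptors BDKRB1 of bradykinin, at 1.84 ± 0.29, AGTR1 of angiotensin II, at 1.82 ± 0.12, and ADORA2B of adenosine, at 1.32 ± 0.12.

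Of 34 sterol and fatty acid genes, 7 rose and 0 fell, and there was 1 fall without BJELM replicate 1. ELOVL2, which extends polyunsaturated fatty acids, went from 6.01 and 5.94 to 9.49 and 9.27 (change 3.41 ± 0.10, adjusted p = 5.74e-05). SCD, the desaturase, went from 10.11 and 10.32 to 11.67 and 11.84 (change 1.54 ± 0.11), and FASN, fatty acid synthase, from 8.93 and 9.12 to 10.36 and 10.39 (change 1.35 ± 0.10). Of 37 lysosome and autophagy genes 8 fell. GABARAPL1, of the autophagosome membrane, went from 11.65 and 11.71 to 9.27 and 8.85 (change -2.62 ± 0.15, adjusted p = 0.000236), WIPI1 fell by 1.95 ± 0.24, and LIPA, lysosomal acid lipase, fell by 1.71 ± 0.11.

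Stress and sugar metabolism showed no common direction. Glycolysis and hypoxia genes gave 2 rises and 2 falls among 28, where 4.09% of all genes rose and 4.7% fell. EPAS1, the hypoxia factor HIF-2 alpha, went from 11.82 and 11.48 to 9.56 and 8.93 (change -2.41 ± 0.22), and ADM, adrenomedullin, fell by 1.48 ± 0.18. The rises of CA12 and PDK1 were lost without BJ replicate 2, and that of PDK1 also without BJELM replicate 1. The ATF4 list gave 3 falls among 23, those of SLC6A9, NUPR1 and VLDLR, and none of the 3 was kept without BJ replicate 1 or without BJELM replicate 2, whereas 5 fell without BJELM replicate 1 and 2 rose without BJELM replicate 2. Antioxidant genes gave 2 rises and 5 falls among 38, and 3 falls without BJ replicate 1. GCLC, which makes glutathione, went from 7.56 and 7.47 to 8.75 and 9.06 (change 1.39 ± 0.12), and SOD2, mitochondrial superoxide dismutase, rose by 1.21 ± 0.12. ABCC3, an efflux pump, fell from 8.87 and 8.79 to 6.36 and 6.55 (change -2.37 ± 0.12), and GSTM1, a glutathione transferase whose gene belongs to a family of near copies, fell by 1.302 ± 0.09.

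Ion channels and transporters gave 6 falls and 2 rises among 36, where 4.7% of all genes fell and 4.09% rose. CACNA1C, the L-type calcium channel, went from 8.21 and 8.17 to 6.401 and 6.33 (change -1.83 ± 0.081, adjusted p = 0.000113), and the calcium pump ATP2B4 fell by 2.10 ± 0.15. SLC39A8, a zinc and manganese importer, rose from 5.82 and 6.09 to 8.75 and 8.22 (change 2.53 ± 0.24), and TRPA1, an irritant channel, by 1.74 ± 0.12.

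Of 75 writers, erasers and remodelers of chromatin 17 rose and 3 fell, and 6 or 1 fell without BJELM replicate 1 or 2. CHD7, a nucleosome remodeler, went from 5.67 and 5.75 to 7.32 and 7.38 (change 1.64 ± 0.088, adjusted p = 0.000201). MTF2, a partner of the polycomb complex PRC2, rose by 1.51 ± 0.10 and the H3K9 methyltransferase SUV39H2 by 1.51 ± 0.24. AKAP1, an anchor protein of the outer mitochondrial membrane that the list holds, rose by 2.02 ± 0.10. PRMT5, an arginine methyltransferase, went from 10.81 and 10.60 to 12.000 and 11.90, and KDM1A, the demethylase LSD1, from 9.62 and 9.52 to 10.83 and 10.77. SMARCA2, an ATPase of the SWI/SNF complex, fell from 8.90 and 8.93 to 7.53 and 7.37 (change -1.46 ± 0.092).

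The partners of MYC itself showed no call. None of 17 network genes reached 2-fold in the main fit, so none could be called. At an unadjusted limma p under 0.05 there were 7, beside 6873 of all 18417 genes, and the median was 0.01. MXI1, which competes with MYC for MAX, had 7.61 and 7.56 and 8.58 and 8.51 (change 0.96 ± 0.094, adjusted p = 0.00107), short of the 2-fold minimum, which it reached with each array centred on its median, at 1.00. Telomerase and shelterin genes gave 2 rises among 14, TERT and the pseudouridine synthase DKC1, and the call of DKC1 was lost without BJ replicate 1 or BJELM replicate 2, while 1 gene fell without BJELM replicate 1. Estrogen-responsive genes gave 1 fall among 14, IGFBP4, where 4.7% of all genes fell. The count changed when single arrays were left out. Common control genes gave 2 rises among 13, HPRT1 at 1.11 ± 0.20 and the transferrin receptor TFRC at 1.45 ± 0.11, and that of HPRT1 was lost without BJ replicate 1 or BJELM replicate 2.

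MicroRNA genes and their host transcripts, examined after values had been seen, gave 1 rise and 3 falls among 189. Both shares were below those of all genes, 4.09% for rises and 4.7% for falls. The probes read the hairpin or the host RNA, and mature microRNAs were not measured. MIR17HG, the host of the miR-17-92 cluster, went from 5.10 and 5.12 to 6.02 and 6.52 (change 1.16 ± 0.16, adjusted p = 0.00354), and was not called without BJELM replicate 2. Its mature products are shown, from RefSeq on GRCh38.p14, with the seed (bases 2 to 8) in capitals.
hsa-miR-17-5p, chr13:91350618-91350640, + strand: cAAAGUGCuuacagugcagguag
hsa-miR-20a-5p, chr13:91351072-91351094, + strand: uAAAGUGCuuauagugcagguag
hsa-miR-18a-5p, chr13:91350756-91350778, + strand: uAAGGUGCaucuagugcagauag
hsa-miR-19a-3p, chr13:91350939-91350961, + strand: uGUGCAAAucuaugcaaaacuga
hsa-miR-19b-3p, chr13:91351245-91351267, + strand: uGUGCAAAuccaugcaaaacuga
hsa-miR-92a-3p, chr13:91351361-91351382, + strand: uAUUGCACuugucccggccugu
The miR-17 and miR-20a products share 1 seed and the miR-19 products another. The falls were MIR31HG, from 8.76 and 9.25 to 7.23 and 7.15 (change -1.82 ± 0.16, adjusted p = 0.000804), MIR22HG, from 7.97 and 7.93 to 6.90 and 6.94 (change -1.03 ± 0.08), and MIR221, from 7.19 and 8.24 to 6.64 and 6.22 (change -1.29 ± 0.35). MIR22HG was not called with each array centred on its median (change -0.99). MIR221 was not called without BJ replicate 2, either array labelled BJELM or either BJEL array, at adjusted p of 0.0582 to 0.145.

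Several deep falls belong to none of these groups. TGM2, the crosslinking enzyme tissue transglutaminase, went from 12.03 and 11.43 to 7.40 and 7.69 (change -4.19 ± 0.21, adjusted p = 0.000161). CAMK2N1, an inhibitor of the calcium kinase CaMKII, went from 12.12 and 12.13 to 8.20 and 7.48 (change -4.29 ± 0.22), and FLT1, a receptor of vascular endothelial growth factor, from 10.09 and 9.99 to 6.21 and 5.81 (change -4.03 ± 0.15). ACKR4, a scavenger of chemokines, and GALNT5, a glycosyltransferase, fell, with changes of -4.22 ± 0.36 and -4.52 ± 0.36. ALDH1A1, CRYAB and STMN2 were chosen after the values were seen. Their mean over the 6 arrays lay below the median gene, although their BJ signals lay above it. ALDH1A1, a retinaldehyde dehydrogenase, went from 11.34 and 10.61 to 4.73 and 4.52 (change -6.35 ± 0.23, adjusted p = 8.37e-05). CRYAB, the small heat shock protein alpha B-crystallin, went from 11.14 and 11.14 to 4.72 and 4.91 (change -6.33 ± 0.10). STMN2, a microtubule destabilizer, went from 10.51 and 9.68 to 4.76 and 4.95 (change -5.24 ± 0.25).

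At the 2-fold border the called genes CASP8AP2, SNHG17 and TRMT61B and the uncalled genes CEP295, HDAC11 and IL6ST all had a change of 1.00 in size. CASP8AP2 had 7.50 and 7.62 and 8.66 and 8.46, and CEP295 7.05 and 7.23 and 8.23 and 8.05. Each of the 6 crossed the border when single arrays were left out.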

How the data were processed

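RNA from 3 cell lines, with 2 arrays per line, was labelled with biotin and hybridised to Affymetrix whole-transcript arrays. Per the labels, the authors summarized the arrays by RMA in Affymetrix Expression Console 1.3.1, and the deposited values are log2 signals for 33297 probe sets with no missing value. RMA sets all arrays to nearly the same distribution, so a change of total RNA per cell cannot be seen, and no background call came with the values, so changes of dim genes may be understated. Which genome build lies behind the probe sets is not given in the sources used here.

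GEO's platform annotation listed 21214 probe sets, of which 19460 had 1 gene symbol and 1754 had several, and 12083 were not listed and are unnamed here. Symbols were updated through RefSeq for 18389 of the 18417 genes, and 769 genes had several probe sets, of which the one with the highest mean was kept. The arrays were fitted with limma 3.58.1 (R 4.3.3), lmFit and eBayes, with a mean per line over all 6 arrays (3 residual and 3.13 prior degrees of freedom). A gene was called at a Benjamini-Hochberg adjusted p under 0.05, two-sided, and at least 2-fold. The fit was also run on simulated data for the 18417 genes, with independent normal noise around the BJ means and the fit's own spreads. It recovered 92% of 100 genes changed by 1.2 and 100% of 100 changed by 2 on the log2 scale, with 2 unchanged genes called. Deviations of same-numbered real arrays correlated at 0.481 between BJ and BJELM, which the simulation left out. It checks that the procedure runs and does not give the error rate of the calls reported here. All adjusted p-values are from limma, over all genes, and errors are its standard errors with 2 arrays per line.

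The comparison, the 51 gene lists, the 8 further lists of cell type markers and the rule for named genes were chosen with earlier results of these data known, and lists were described by counts and medians without a test. The 2 families of small nucleolar RNA and microRNA genes were added after values had been seen. The rule named MYC, TERT and CCND2, the 15 largest rises and 15 largest falls at or above the median level, up to 4 called members of each list with the largest change (2 where none was called), and the 3 genes on each side of the 2-fold border. Other genes named were chosen after their values were seen. Levels and changes of XIST and Y-linked genes are not reported. Alternatives were leaving out each array, fitting only BJ and BJELM arrays, the replicate number as a block, median centring and quantile normalization. Others were a trended robust prior, filters on dim genes, all probe sets, other thresholds and an ordinary t-test with unequal variances. That t-test is called the methods' t-test here, but it only stands in for the study's modified t-test, which was not run. Promoter and microRNA sequences are from RefSeq.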

Additional observations from a re-analysis of the deposited data

How the results depend on the processing

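With 1 array left out in turn, where the lone array of a line is assumed to vary like the other lines, the called genes numbered 1393 to 1782, the rises 684 to 823 and the falls 709 to 1026. The counts moved by over 1.5 times only with other thresholds or the other test. Without a fold minimum 5195 genes were called (2790 rose and 2405 fell). With a minimum of 4-fold 279 were called (76 and 203). The methods' t-test, here an ordinary t-test with unequal variances at an unadjusted p under 0.05 and 2-fold, called 880 (424 and 456). It called 0 after Benjamini-Hochberg adjustment. The study's modified t-test was not run, so these counts are not those of its own procedure. The remaining alternatives gave 1304 to 1678 calls. Replicate numbers are shared by the titles, but nothing says that they mark a common batch. Deviations of same-numbered arrays correlated at 0.481 between BJ and BJELM, and with the replicate block 1644 genes were called (763 rose and 881 fell), with all 236 named calls kept. Of these 236 calls 25 were lost without BJ replicate 1, 11 without BJ replicate 2, 10 without BJELM replicate 1, 20 without BJELM replicate 2, 2 with median centring and 83 with the methods' t-test, and none changed direction. Of uncalled genes, MYC changed sign without BJELM replicate 2, with a range of -0.634 to 0.036 over the arrays left out, and MKI67 (-0.091 to 0.353) and TYMS (-0.087 to 0.338) did so without BJ replicate 1. The cause of these shifts was not tested. The 2 arrays per line and the lack of background calls limit what can be said of dim genes, and 326 of the 1619 calls lay below the median level of 7.26.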
